A study of Mus musculus with 7 samples.

Results

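The genes described here are 34 markers of the brain's blood vessels, of which 24 mark endothelial cells, 7 mark pericytes and 3 mark vascular smooth muscle. They were taken by gene symbol from the count tables of mouse hippocampus, and each of the 34 matched an Ensembl identifier among the 55416 that the tables list. All 34 had at least 1 count in some library. Of these, 32 passed the filter on low counts that 13152 genes of the whole series passed, and Anpep and Tagln did not.

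The series holds bulk RNA-seq of hippocampi from male, age-matched, outbred CD1 mice, and their age is not given in the sources used here. Control (untreated) mice gave 3 libraries, numbered 1 to 3. ONX-0914-treated mice gave 2 libraries, numbered 1 and 2, after intraperitoneal doses of 10 mg/kg, 2 times per week, for 2 months. DMSO-treated mice gave 2 libraries, numbered 2 and 3, after an equal volume of the solvent on the same schedule. ONX-0914 is an inhibitor of the immunoproteasome, the form of the proteasome whose catalytic subunits are induced by interferon. Control mice had no injections, so they differ from ONX-0914-treated mice by the compound, the solvent and the injections together. The labels do not say whether each library came from an animal of its own, so p-values measure the spread between these libraries, which may be technical.

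Brain endothelial cells line the capillaries and are sealed to each other by tight junctions. Many nutrients and some lipids cross this wall through carriers, and pumps hold back many drugs. The sealed wall is the blood-brain barrier. Endothelial cells keep it up together with pericytes, which sit on the capillary wall, and with the end feet of astrocytes. Smooth muscle cells wrap the arterioles and set their diameter. Endothelial cells are a small share of the cells in hippocampal tissue, and mural cells (pericytes and smooth muscle) are fewer still.

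RefSeq promoter sequences (assembly GRCm38.p6, the 250 bases upstream of the annotated start) were listed for 25 of the 34 genes. They were searched on both strands for AGGAAG and CGGAAG, core sites of the ETS family to which the endothelial regulator Erg belongs. One form or the other stood in 10 of the 25 (40%), beside 39.2% of all 32851 promoters listed. Only the first listed promoter of each of the 25 genes was read, whereas the 32851 can hold several of a gene. ACAAT, a core site of SOX factors such as Sox17, stood in 6 of the 25 (24%, beside 27.7% of all). ACGTG, the core of the hypoxia response element, stood in 3 (12%, beside 16.6% of all): Mfsd2a, Notch3 and Slc2a1. The CArG box of smooth muscle genes (CC, 6 letters of A or T, then GG, with no other form searched) stood in none of the 25, beside 1.47% of all. Of the 3 smooth muscle genes only Acta2 had a promoter listed, so the search could not cover Tagln and Myh11. The 2 ETS forms share the letters GGAAG, and the other motifs share no core with them. The promoters of Cldn5 (chr16:18776597-18776846, plus strand), Flt1 (chr5:147726012-147726261, minus strand) and Rgs5 (chr1:169655251-169655500, plus strand) are printed 5′ to 3′ because both ONX-0914 libraries lay above the other libraries for these genes, and capitals mark the ETS matches.
Cldn5: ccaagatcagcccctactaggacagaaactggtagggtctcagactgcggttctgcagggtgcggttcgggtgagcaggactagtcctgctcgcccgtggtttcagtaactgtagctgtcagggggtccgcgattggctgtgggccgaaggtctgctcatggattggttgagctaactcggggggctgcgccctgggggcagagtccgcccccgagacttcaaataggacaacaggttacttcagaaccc
Flt1: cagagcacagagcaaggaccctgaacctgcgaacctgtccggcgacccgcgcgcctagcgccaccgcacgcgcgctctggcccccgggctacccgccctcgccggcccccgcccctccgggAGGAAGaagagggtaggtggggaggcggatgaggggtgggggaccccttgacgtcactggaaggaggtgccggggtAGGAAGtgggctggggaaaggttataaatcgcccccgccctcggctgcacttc
Rgs5: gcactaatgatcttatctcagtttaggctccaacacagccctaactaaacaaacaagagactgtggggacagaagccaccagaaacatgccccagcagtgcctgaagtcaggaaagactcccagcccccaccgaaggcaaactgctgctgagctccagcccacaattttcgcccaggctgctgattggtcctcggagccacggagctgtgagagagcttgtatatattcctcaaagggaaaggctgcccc
Flt1 held 2 ETS matches, and Cldn5 and Rgs5 held none. Rgs5 held 1 SOX match, and the others none. A match is a description of the sequence and not a site, and a missing match says only that these letters are not in the window.

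The count total was 2842675 to 3877006 in the control, DMSO and first ONX-0914 libraries and 13782270 in ONX-0914 replicate 2. The ONX-0914 libraries differed from each other far more than other replicates did, with a chi-square per degree of freedom of 93.2 over genes against 2.56 to 3.28 for the other pairs of the same group. ONX-0914 replicate 1 had 1176 CPM (counts scaled to a common library size, with TMM factors) of 9 striatal markers, against 134 to 206 in the other 6 libraries, and 898 CPM of 8 thalamic markers, against 80.4 to 109. Its sum over 9 hippocampal neuron markers was 352 CPM, against 802 to 870 elsewhere. ONX-0914 replicate 2 had 832 CPM of 5 red blood cell markers (Hba-a1 and Hbb-bs lead this list), against 29.9 to 95.9 in the other libraries. Values are therefore given for each ONX-0914 library, and fitted values that changed most are also given without each of them.

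In control hippocampus, levels per length (CPM per kb of annotated exons, mean ± SD, n = 3) ranged from 0.138 ± 0.239 for Tagln to 21.8 ± 1.56 for Slc2a1. Slc2a1, the glucose transporter of the barrier, stood first, followed by Itm2a, a membrane protein of brain capillaries, at 16.7 ± 3.14, the tight junction protein Cldn5 at 16.2 ± 3.17 and the pericyte-secreted adhesion protein Vtn at 15.7 ± 4.42. The last 3 did not differ beyond their spread. Tjp1, a scaffold of junctions that other cell types also use, had 11.4 ± 0.475, and the pericyte signalling regulator Rgs5 had 8.69 ± 0.857. Egfl7, a protein endothelial cells secrete, and Flt1, a receptor of vascular endothelial growth factors, overlapped at 5.59 ± 1.92 and 5.25 ± 0.518. The endothelial transcription factor Sox17 was among the lowest at 0.429 ± 0.049, with only 5, 8 and 8 counts in the control libraries. The pericyte aminopeptidase Anpep had 4, 3 and 9 counts there, and the smooth muscle protein Tagln 0, 0 and 3. The defining markers of endothelial cells and pericytes were thus all detected, whereas one of the 3 smooth muscle markers was at or near 0.

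**Figure D1:**
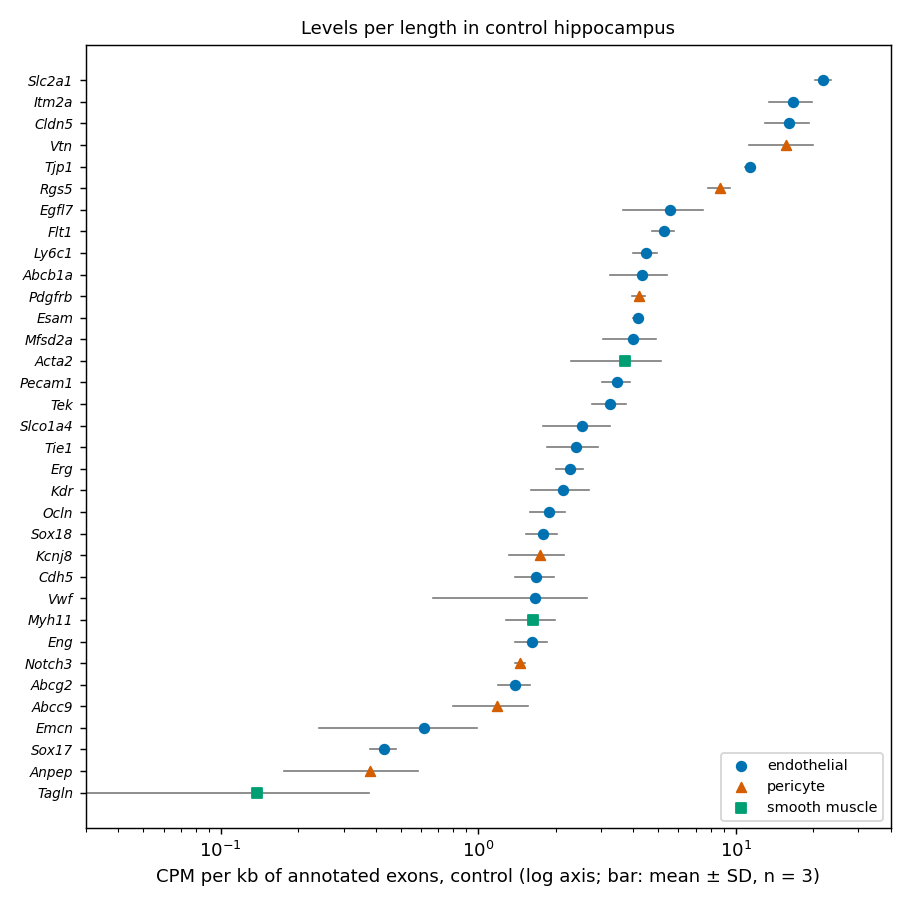
Levels of the 34 vascular genes in the 3 control libraries, as CPM per kb of annotated exons on a log axis, with points at the mean and bars of 1 SD; colour and shape give the cell type. Slc2a1 stood highest at 21.8 and Tagln lowest at 0.138, and the Tagln bar runs off the axis because its SD exceeds its mean.

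The comparison of ONX-0914-treated with control mice asked whether the treatment shifted hippocampal expression. Most endothelial genes were at higher levels in the ONX-0914 libraries, but no single gene passed the test. The median Log2FC (log2 fold change fitted by edgeR) of the 32 tested genes was 0.495, beside 0.048 over all genes tested. It was 0.533 over the 24 endothelial genes, 0.414 over the 6 tested pericyte genes and -0.335 over the 2 tested smooth muscle genes. Fits without ONX-0914 replicate 1 and without replicate 2 gave medians of 0.517 and 0.357 for endothelial genes, -0.007 and 0.602 for pericyte genes and -1.235 and 0.292 for smooth muscle genes, so that only the endothelial median kept its sign. Log2FC was above 0 for 28 of 32 genes, beside 53.9% of all genes, and for 23 of the 24 endothelial genes, the exception being Erg. Without replicate 1, 22 of the 24 endothelial genes were above 0, beside 50.5% of all genes, and without replicate 2, 19 were, beside 52.2%. In bulk tissue, more or fewer cells of a type and more or less RNA per cell cannot be told apart.

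With edgeR's quasi-likelihood test and Benjamini-Hochberg FDR under 0.05 over all genes, 0 of the 32 genes were called, beside 0.137% of all genes, and limma voom also called 0, beside 0.137% of all genes. DESeq2 called 2, Eng and Ly6c1, both higher, beside 3.01% of the genes it gave an FDR. Without the filter on low counts edgeR called 7, beside 4.17% of all genes. At an unadjusted edgeR p under 0.05 there were 12 genes, all higher, beside 17.8% of all genes in either direction and 10.1% higher. They were Cldn5, Pecam1, Kdr, Flt1, Eng, Slc2a1, Slco1a4, Mfsd2a, Sox17, Ly6c1, Rgs5 and Vtn. At that level limma voom gave 10, beside 2606 of all 13152 genes, and DESeq2 gave 9, beside 1918. Both ONX-0914 libraries lay above all 3 control libraries for 15 of the 34 genes, beside 16.8% of all genes tested, and below them for 0, beside 16.4%. Of these 15 genes, 13 were endothelial and 2, Rgs5 and Vtn, were pericyte genes. Both ONX-0914 libraries also lay above all 5 control and DMSO libraries for 13 genes, beside 11.3% of all genes, and below all 5 for 0, beside 11.4%.

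**Figure D2:**
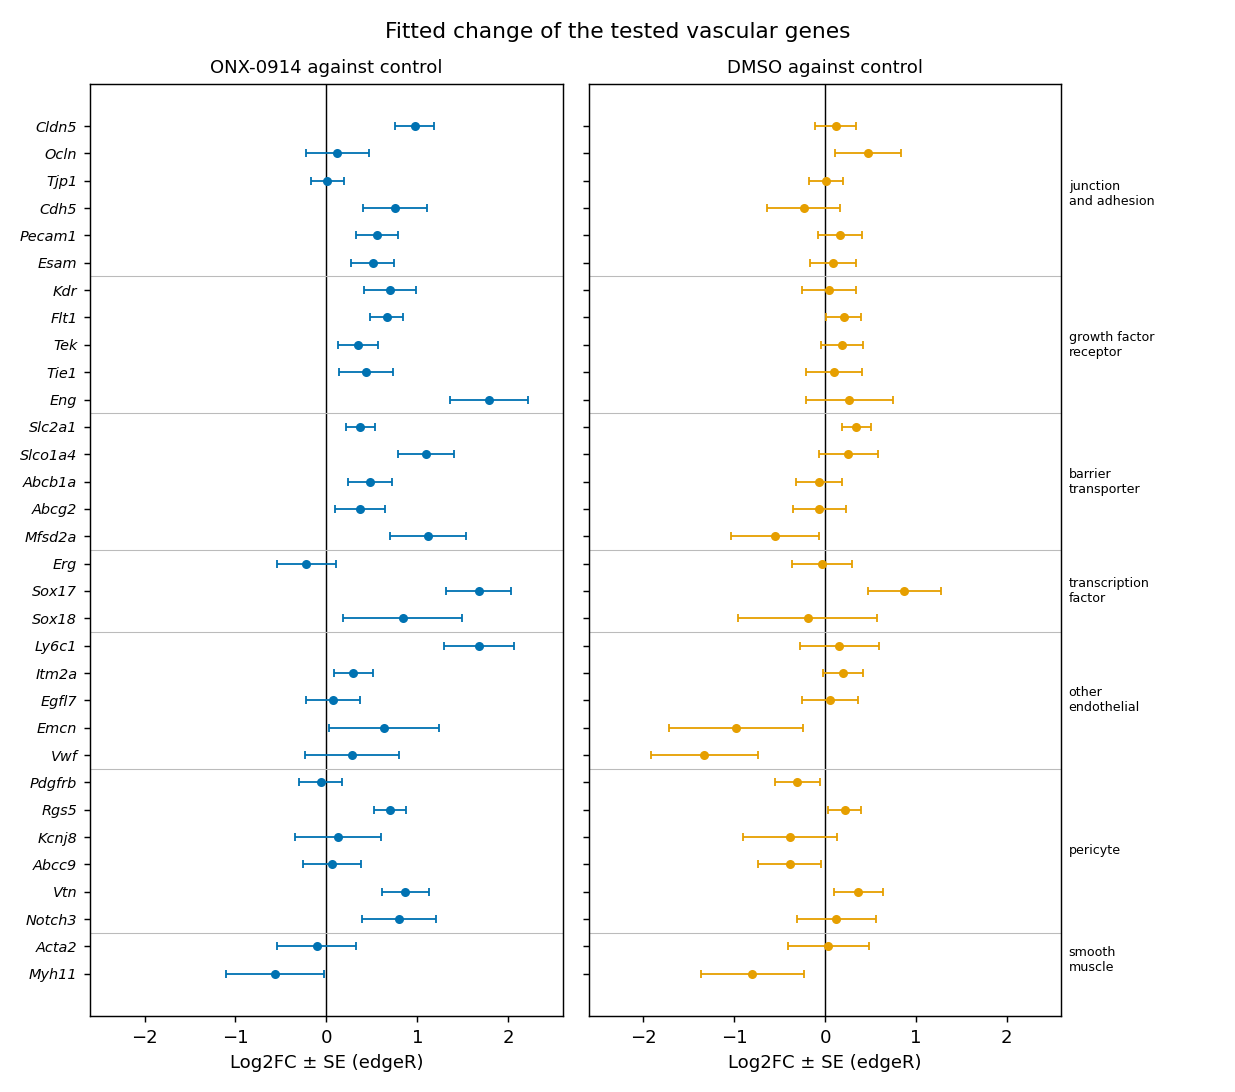
Fitted Log2FC of the 32 tested genes with 1 SE, for ONX-0914 against control (left) and DMSO against control (right), ordered by role. The left panel has 28 of 32 points above 0 with a median of 0.495, the right panel 20 of 32 with a median of 0.073, and both share the same control libraries.

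The summed level of all 34 genes was 634, 720 and 637 CPM in the control libraries, 684 and 717 in the DMSO libraries and 903 and 975 in ONX-0914 replicates 1 and 2. Both ONX-0914 sums lay above the other 5. The endothelial sum was 494 to 562 CPM in control, 541 and 567 in DMSO, and 698 and 782 under ONX-0914. The pericyte sum was 106 to 134, 126 and 136, and 180 and 185 in the same order. In ONX-0914 replicate 2, Rgs5 and Vtn gave 67.5 and 66.8 CPM of the 185. The median log2 difference of the 6 tested pericyte genes from the control mean was 0.017 in that library. Pericyte and endothelial sums kept a ratio of 0.21 to 0.258 in all 7 libraries, with the lowest and the highest value in control replicate 1 and ONX-0914 replicate 1. The smooth muscle sum was 17.6 to 24.4 CPM in control, 17.4 and 13.9 in DMSO, and 25.3 and 8.87 under ONX-0914. Both DMSO libraries lay below the controls, one of them narrowly, and the ONX-0914 libraries lay on either side of all 5.

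Among the 6 junction and adhesion genes, 4 (Cldn5, Cdh5, Pecam1 and Esam) had both ONX-0914 libraries above all control and DMSO libraries. Cldn5 encodes claudin-5, the main claudin of the endothelial tight junction, and its level was 24.1, 17.9 and 26.6 CPM in control, 22.7 and 27.0 in DMSO, and 44.5 and 44.9 in ONX-0914. The ONX-0914 libraries lay close together and did not overlap the others. The Cldn5 Log2FC was 0.97 ± 0.216 (SE), a 1.96-fold difference, with an edgeR FDR of 0.111. It was 0.97 with replicate 1 left out and 0.96 with replicate 2 left out. The FDR was 0.0522 by DESeq2 and 0.0109 by edgeR without the filter on low counts, and the highest of any alternative was 0.425. Pecam1, an adhesion molecule of endothelial contacts, had 22.4, 23.9 and 18.7 CPM in control and 33.5 and 30.1 under ONX-0914 (Log2FC 0.55 ± 0.231, FDR 0.264, and 0.47 and 0.63 without replicate 1 and 2). Its DMSO libraries, at 19.5 and 29.1, reached nearly as far. Esam, an adhesion molecule of the same contacts, had 11.7 to 12.6 CPM in control and 16.3 and 17.8 under ONX-0914, with 15.3 in DMSO replicate 3.

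Cdh5, the cadherin of endothelial adherens junctions, had 5.68, 7.87 and 7.68 CPM in control, 5.08 and 7.11 in DMSO, and 8.01 and 15.4 in ONX-0914 replicates 1 and 2. Replicate 1 was barely above the highest control library. The Log2FC was 0.76 with both libraries (edgeR FDR 0.306), 1.10 without replicate 1 and 0.16 without replicate 2. The remaining junction genes overlapped between groups. Ocln, a transmembrane protein of tight junctions, had 5.51 CPM in ONX-0914 replicate 1, the lowest of all 7 libraries, and 11.2 in replicate 2. Tjp1 had 84.9 to 92.2 CPM in control and 82.3 and 95.9 under ONX-0914 (Log2FC 0.01 ± 0.183).

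All 5 growth factor receptor genes had a Log2FC above 0, with a median of 0.663. Flt1 had 63.2, 76.8 and 72.7 CPM in control, 73.8 and 89.9 in DMSO, and 125 and 100 under ONX-0914. Its ONX-0914 libraries did not overlap the other 5 (Log2FC 0.66 ± 0.185, edgeR FDR 0.156). The Flt1 Log2FC was 0.485 with replicate 1 left out and 0.807 with replicate 2 left out, and the highest FDR of any alternative was 0.425. Kdr, the main signalling receptor for the same growth factors, had 21.0, 13.9 and 23.3 CPM in control, 19.0 and 21.0 in DMSO, and 38.5 and 24.6 under ONX-0914. Replicate 2 stood just above the highest control library. The Kdr Log2FC of 0.69 ± 0.286 (edgeR FDR 0.26, at most 0.543 over the alternatives) was 0.35 without replicate 1 and 0.997 without replicate 2. The ratio of Flt1 to Kdr was 3.23 and 4.06 in the ONX-0914 libraries, inside the control range of 3.02 to 5.55.

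Tek, the angiopoietin receptor of vessel quiescence, had 20.0 and 19.2 CPM under ONX-0914 and 12.8 to 17.3 in control, with DMSO replicate 3 at 19.6 between them. Its related receptor Tie1 had 9.94, 10.6 and 14.8 CPM in control and 20.0 and 12.4 under ONX-0914, so that the groups overlapped. Eng, an endothelial co-receptor for the TGF-beta and BMP family, had 7.10, 7.06 and 5.49 CPM in control, 8.55 and 7.11 in DMSO, and 11.3 and 32.9 in ONX-0914 replicates 1 and 2. Both ONX-0914 libraries lay above the rest, and replicate 2 was 2.92-fold above replicate 1. The Eng Log2FC of 1.79 ± 0.427 (FDR 0.125) was the largest of the 32, and became 2.32 without replicate 1 and 0.78 without replicate 2. Its DESeq2 FDR was 0.0246, and the highest FDR of any alternative was 0.425. Eng shares 61 of 4048 exonic bases with Fpgs on the opposite strand in the GENCODE M21 annotation, and the strand setting of the counting is not given in the sources used here.

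The 5 barrier transporter genes also all had a Log2FC above 0, from 0.369 to 1.117. Slco1a4, a carrier of organic anions, thyroid hormone and bile salts, had 16.7, 20.6 and 11.2 CPM in control, 15.8 and 23.1 in DMSO, and 28.3 and 40.3 under ONX-0914. The ONX-0914 libraries lay above the other 5, and the Log2FC was 1.09 ± 0.304 with an edgeR FDR of 0.156. With replicate 1 left out, the Log2FC was 1.31, and with replicate 2 left out it was 0.80. The highest FDR of any alternative was 0.422. Mfsd2a, which carries lysophospholipids with docosahexaenoic acid into the brain and limits transcytosis, had 11.4, 7.87 and 7.68 CPM in control, 8.02 and 3.91 in DMSO, and 11.3 and 26.5 under ONX-0914. Replicate 1 lay inside the control range and only replicate 2 stood above it. The Mfsd2a Log2FC of 1.12 ± 0.422 (FDR 0.233) was 1.57 without replicate 1 and 0.35 without replicate 2.

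Slc2a1 had 79.9, 79.6 and 70.2 CPM in control, 96.2 and 97.8 in DMSO, and 93.1 and 104 under ONX-0914. Both treated groups lay above the control libraries and overlapped each other (Log2FC 0.37 ± 0.158 and 0.34 ± 0.16 against control, unadjusted p = 0.0456 and 0.0645 by edgeR's test across all genes, with FDRs of 0.271 and 0.999). The value for ONX-0914 was 0.44 with replicate 1 and 0.28 with replicate 2 left out, and the highest FDR of any alternative was 0.569. The efflux pump gene Abcb1a had 17.1, 28.2 and 25.8 CPM in control and 36.0 and 30.5 under ONX-0914, a narrow separation (Log2FC 0.48 ± 0.243, and 0.34 and 0.58 without replicate 1 and 2). Reads of Abcb1a can be shared with its near copy Abcb1b, which had 1 to 27 counts per library. Abcb1b had 0.274 to 3.8 CPM in control, 5.35 and 6.04 in DMSO, and 4.5 and 1.77 under ONX-0914. The efflux pump gene Abcg2 overlapped between groups, at 9.60 to 12.8 CPM in control and 12.3 and 16.7 under ONX-0914.

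The 3 endothelial transcription factors did not move together. Sox17, a factor of arterial endothelium, had 1.78, 2.17 and 2.19 CPM in control, 4.01 and 3.56 in DMSO, and 6.51 and 6.70 under ONX-0914. The 3 groups did not overlap, and DMSO lay between the others. The Sox17 Log2FC of 1.67 ± 0.361 had the lowest edgeR FDR of the 32 genes, 0.106, and was 1.68 with replicate 1 and 1.64 with replicate 2 left out. Its highest FDR in any alternative was 0.414. Counts were small, at 26 and 102 under ONX-0914, and 804 of the 4772 exonic bases of Sox17 overlap Gm37587 on the opposite strand. Sox18, a related factor, had 1.50 and 8.08 CPM in ONX-0914 replicates 1 and 2, on either side of the control libraries at 2.44 to 3.20, and its Log2FC of 0.84 was 1.48 without replicate 1 and -0.92 without replicate 2. Erg, an ETS factor that keeps endothelial identity, had 6.86 to 8.69 CPM in control and 8.51 and 5.39 under ONX-0914 (Log2FC -0.22 ± 0.322, which was -0.56 without replicate 1 and 0.11 without replicate 2).

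Of the 5 other endothelial genes, only Ly6c1 had both ONX-0914 libraries above all controls. Ly6c1, a surface antigen of brain capillaries, had 7.81, 8.15 and 6.59 CPM in control, 6.95 and 9.95 in DMSO, and 13.5 and 33.4 under ONX-0914. As with Eng, replicate 2 was far above replicate 1, by 2.47-fold. The Ly6c1 Log2FC of 1.68 ± 0.387 (edgeR FDR 0.12, DESeq2 FDR 0.0244) was 2.15 without replicate 1 and 0.85 without replicate 2. The highest FDR of any alternative was 0.425. Its near copy Ly6c2 had 0 to 2 counts (0 to 0.71 CPM) in control and DMSO. Under ONX-0914 it had 4 and 8 counts (1.0 and 0.526 CPM). Reads shared between the copies leave the Ly6c1 value uncertain.

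Vwf, the clotting factor stored by endothelial cells, had 30.9, 40.2 and 9.05 CPM in the control libraries, a 4.44-fold spread within the group. ONX-0914 replicate 1, at 22.5, fell in that range, and replicate 2, at 41.1, lay just above its highest library (Log2FC 0.28 ± 0.516, 0.62 without replicate 1 and -0.24 without replicate 2). Emcn, a sialomucin of capillaries and veins, spread as widely, with 1.37 to 5.43 CPM in control and 2.75 and 7.16 under ONX-0914. Itm2a had 25.0 to 35.3 CPM in control and 33.5 and 37.6 under ONX-0914, and Egfl7 had 14.5 to 27.7 and 23.5 and 19.0. Both overlapped between groups, and Egfl7 shares 264 exonic bases with Gm20532 on its own strand.

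**Figure D3:**
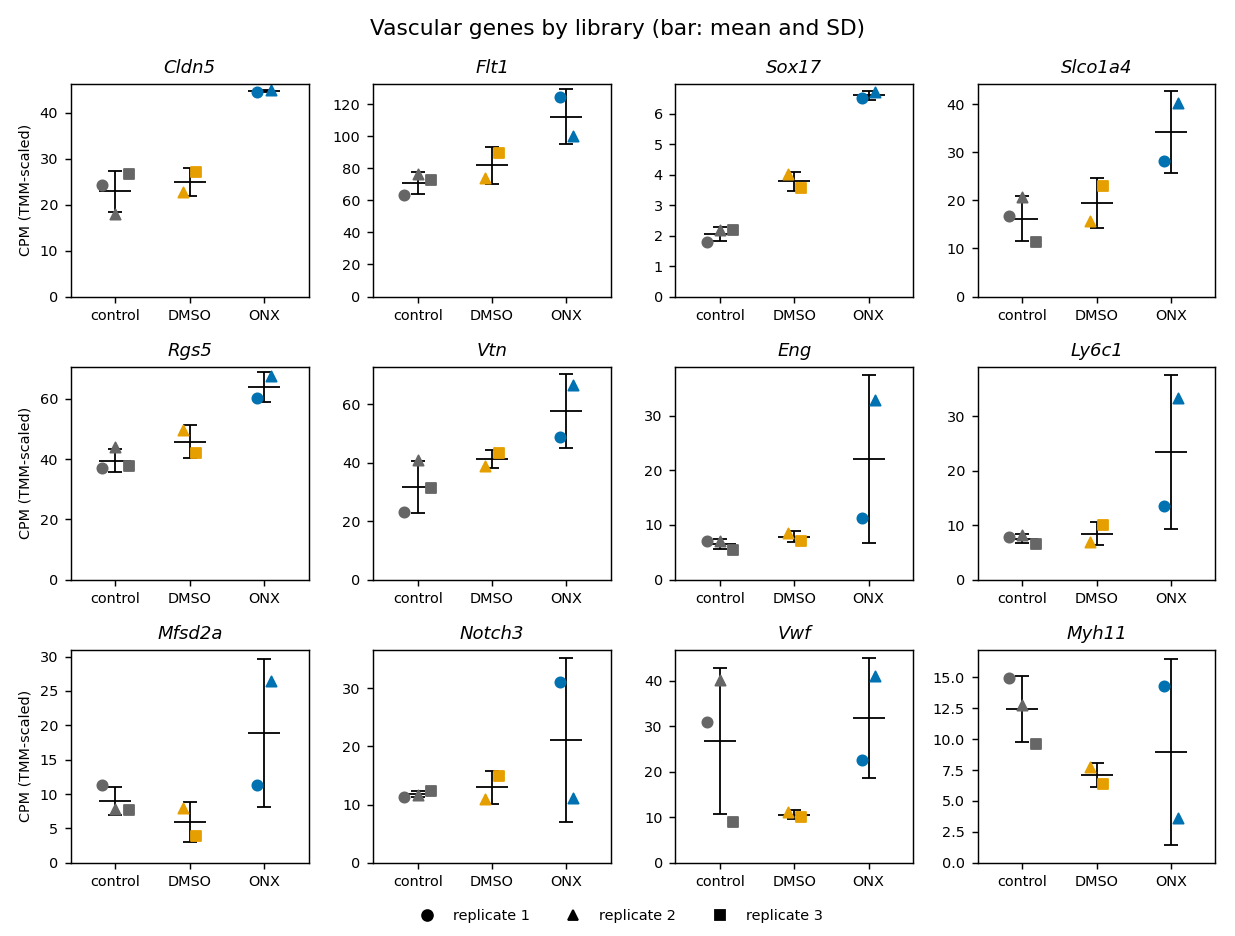
TMM-scaled CPM of 12 vascular genes in each of the 7 libraries, with shapes for replicate numbers and bars for the mean and SD of each group (n = 3 control, 2 DMSO, 2 ONX-0914). In the top row and for Rgs5 and Vtn the ONX-0914 libraries stand above the other 5, for example Cldn5 at 44.5 and 44.9 CPM, while Eng, Ly6c1 and Mfsd2a are led by replicate 2 and Notch3 by replicate 1.

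Pericyte genes were divided. Rgs5, which curbs G protein signalling in pericytes, had 36.9, 44.0 and 37.6 CPM in control, 49.7 and 41.9 in DMSO, and 60.3 and 67.5 under ONX-0914. The ONX-0914 libraries lay above the other 5 (Log2FC 0.70 ± 0.176, edgeR FDR 0.141, at most 0.423 over the alternatives). The Rgs5 Log2FC was 0.761 without replicate 1 and 0.605 without replicate 2. Vtn had 23.1, 41.0 and 31.3 CPM in control, 39.0 and 43.4 in DMSO, and 48.8 and 66.8 under ONX-0914. It too did not overlap, with a Log2FC of 0.87 ± 0.258 and an FDR of 0.167. Without ONX-0914 replicate 1 the Vtn Log2FC was 1.04, and without replicate 2 it was 0.60, the highest FDR of any alternative being 0.438.

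Pdgfrb, the receptor through which endothelial PDGF-B recruits pericytes, showed no such separation, with 21.4 to 23.9 CPM in control and 21.3 and 22.7 under ONX-0914 (Log2FC -0.06 ± 0.235). Kcnj8 and Abcc9, the pore and the sulfonylurea receptor subunit of a pericyte potassium channel, also overlapped, at 7.01 and 3.22 and at 10.8 and 10.1 CPM under ONX-0914 against 3.20 to 5.21 and 6.39 to 12.6 in control. Notch3, the Notch receptor of mural cells, had 11.4 to 12.3 CPM in control, 10.96 and 14.9 in DMSO, 31.0 in ONX-0914 replicate 1 and 11.2 in replicate 2. Its Log2FC of 0.80 ± 0.408 (edgeR FDR 0.339) came from replicate 1, and was -0.09 without it and 1.39 without replicate 2. Anpep was too low to test, at 0.751 and 3.22 CPM under ONX-0914 and 0.815 to 2.47 in control.

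The smooth muscle genes differed in direction between the ONX-0914 libraries. Myh11, the heavy chain of smooth muscle myosin, had 14.9, 12.8 and 9.60 CPM in control, 7.75 and 6.40 in DMSO, and 14.3 and 3.61 in ONX-0914 replicates 1 and 2. Replicate 2 was the lowest of all 7 libraries and replicate 1 was inside the control range. The Myh11 Log2FC of -0.56 ± 0.536 (edgeR FDR 0.592) became -1.77 without replicate 1 and 0.21 without replicate 2. Acta2, the actin of smooth muscle, had 5.68 to 11.7 CPM in control and 10.8 and 5.13 under ONX-0914.

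The 2 ONX-0914 libraries thus shared the direction for most genes but not the size. Both lay above the control mean for 21 of the 32 genes and below it for 1, Pdgfrb, and they lay on opposite sides for 10. Taken singly, replicate 1 lay above it for 27 and replicate 2 for 25 of the 32, beside 6966 and 6659 of all 13152 genes. Replicate 2 exceeded replicate 1 more than 2-fold for 6 genes (Ocln, Eng, Mfsd2a, Sox18, Ly6c1 and Emcn), and the reverse held for 4, all of mural cells (Kcnj8, Notch3, Acta2 and Myh11). Between the DMSO libraries only Mfsd2a and Sox18 differed by that much. Genes with both libraries on the same side, or with 2-fold differences, were not counted over all genes, so those counts have no background share. Set against the control mean, the 32 genes had a median log2 difference of 0.41 in replicate 1 and 0.477 in replicate 2, and the endothelial ones 0.366 and 0.524. For the pericyte genes it was 0.633 and 0.017, and for the smooth muscle genes 0.335 and -1.194. The median over all genes tested was 0.036 and 0.01.

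**Figure D4:**
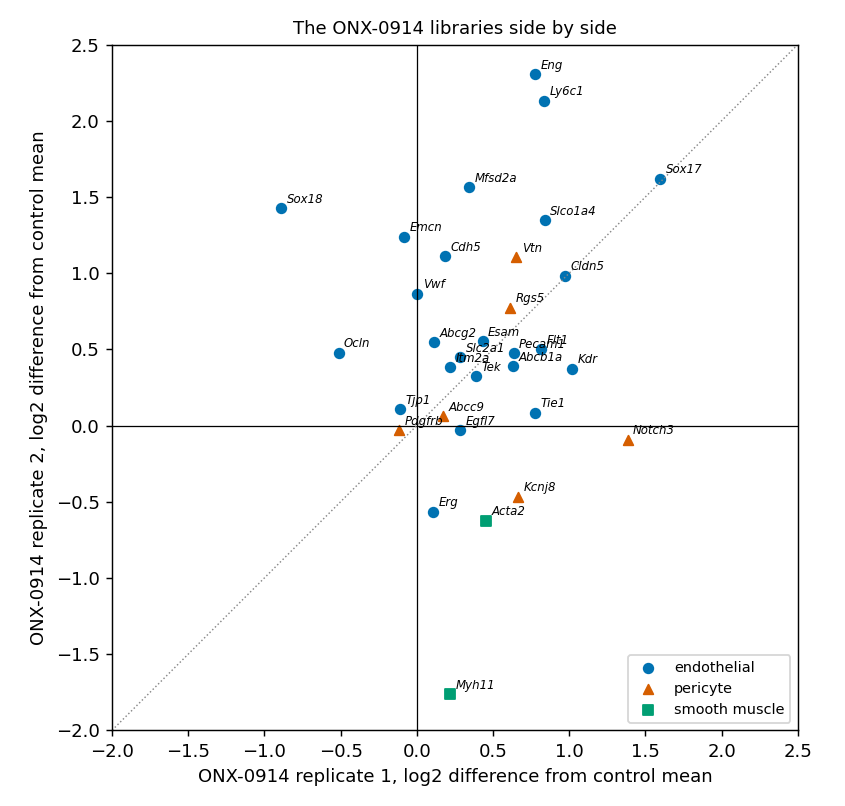
Log2 difference from the control mean in ONX-0914 replicate 1 (x axis) and replicate 2 (y axis) for the 32 tested genes, with the dotted line where both are equal. Cldn5 and Sox17 lie on the line, Eng, Ly6c1 and Mfsd2a above it, and Notch3 and Myh11 below it.

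Fitting the series with a single ONX-0914 library, which is then taken to vary like the other groups, called more genes in the whole table. Without replicate 1, 13 vascular genes were called, beside 46.1% of all genes tested. These were Cldn5, Cdh5, Flt1, Eng, Slc2a1, Slco1a4, Mfsd2a, Sox17, Sox18, Ly6c1, Rgs5 and Vtn, all higher, and Myh11, lower. Without replicate 2, 7 were called, all higher, beside 18.3% of all genes, and they were Cldn5, Flt1, Kdr, Notch3, Rgs5, Slco1a4 and Sox17. The lists shared Cldn5, Flt1, Rgs5, Slco1a4 and Sox17. Both fits used the same control and DMSO libraries, and the overlap over all genes was not counted, so this overlap has no background share. Each of those fits therefore compares a library with the controls, and the share called is to be read against the share of all genes.

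The comparison of DMSO-treated with control mice gave the background of solvent and injections. The median Log2FC of the 32 genes was 0.073, beside -0.004 over all genes, and 20 of 32 were above 0, beside 49.5% of all genes. edgeR called 0 of them at FDR under 0.05 (0.0152% of all genes), as did DESeq2 (0.0684%) and limma voom (0%). At an unadjusted p under 0.05 there were 0 by edgeR, beside 2.69% of all genes. DESeq2 gave 1, beside 167 of all 13152 genes, and limma voom 0, beside 300. Without the filter on low counts edgeR called Vwf, lower, beside 0.116% of all genes. Both DMSO libraries lay above all 3 control libraries for 4 genes (Ocln, Eng, Slc2a1 and Sox17), beside 15.7% of all genes, and below them for Myh11, beside 15%. Ocln had 10.2 and 12.1 CPM in DMSO against 7.06 to 9.33 in control. The Sox17 Log2FC was 0.87 ± 0.398 and that of Vwf -1.33 ± 0.587, where the DMSO libraries at 11.2 and 9.95 CPM sat beside the lowest of the widely spread control libraries. This comparison and that of ONX-0914 with control use the same control libraries, so their values are not independent.

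The comparison of ONX-0914 with its solvent set 2 injected groups side by side, and shares the ONX-0914 libraries with the first. These groups differed in tissue content as well as in the compound. Striatal markers summed to 1176 CPM in ONX-0914 replicate 1, against 206 and 179 in DMSO. Red blood cell markers summed to 832 CPM in ONX-0914 replicate 2, against 46.3 and 34.5 in DMSO. The part of this content in the values below was not tested. The median Log2FC was 0.47, beside 0.049 over all genes, and 28 of 32 genes were above 0, beside 53.9% of all genes. edgeR called 0 genes at FDR under 0.05, beside 0.0456% of all genes, and DESeq2 and limma voom also called 0, beside 2.2% and 0.0456%. Without the filter on low counts edgeR called Eng, Ly6c1, Mfsd2a and Vwf, 4 genes beside 2.88% of all. At an unadjusted edgeR p under 0.05 there were 8, all higher (Cldn5, Cdh5, Eng, Slco1a4, Mfsd2a, Ly6c1, Vwf and Rgs5), beside 14.2% of all genes in either direction and 7.86% higher. At that level DESeq2 gave 6, beside 1514 of all 13152 genes, and limma voom gave 7, beside 2049. Both ONX-0914 libraries lay above both DMSO libraries for 17 genes, beside 20.7% of all genes, and below them for 0, beside 19.9%. Cldn5 had a Log2FC of 0.85 ± 0.242 (FDR 0.221) and Mfsd2a one of 1.67 ± 0.495 (FDR 0.231), against DMSO libraries at 8.02 and 3.91 CPM. Without replicate 2 the Mfsd2a value was 0.86 and without replicate 1 it was 2.09, whereas that of Cldn5 was 0.85 in both fits. The Log2FC of Sox17 against DMSO was 0.80 ± 0.385, and that of Slc2a1 0.03 ± 0.174. Without ONX-0914 replicate 1 the median Log2FC of the vascular genes was 0.394, beside 0.017 over all genes, and without replicate 2 it was 0.49, beside 0.008.

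Genes of the same vessels outside the 34 were read from lists of 164 further genes, of which 132 were tested. For ONX-0914 against control, 98 of the 132 had a Log2FC above 0 (74.2%, beside 53.9% of all genes), with a median of 0.254, and edgeR called 0 at FDR under 0.05. DESeq2 called 5 of the 129 it gave an FDR (3.88%, beside 3.01% of all genes), and 25 of the 132 had an unadjusted edgeR p under 0.05 (18.9%, beside 17.8% of all genes). Over both directions together, both shares were near those of all genes. By direction, 20 of the 132 were higher, beside 1325 of all 13152 genes, and 5 lower, beside 1013. The medians were 0.149 without ONX-0914 replicate 1 and 0.297 without replicate 2. In the list of other endothelial genes, 20 of 21 tested genes were above 0 (95.2%, beside 53.9% of all genes), with a median of 0.369, and 6 had an unadjusted edgeR p under 0.05 (28.6%, beside 17.8%). Without replicate 1 and without replicate 2 this median was 0.446 and 0.324. Ly6a, a surface antigen related to Ly6c1, had 7.96 to 12.4 CPM in control and 14.5 and 40.7 under ONX-0914, and Podxl, a sialomucin of the endothelial surface, had 43.4 to 48.6 and 58.1 and 63.0. Among other barrier genes 16 of 21 were above 0, with a median of 0.274 (0.22 without replicate 1 and 0.08 without replicate 2). Jam2, a junctional adhesion molecule, had 11.7 to 23.4 CPM in control and 30.3 and 47.3 under ONX-0914 (Log2FC 1.26 ± 0.325, edgeR FDR 0.142, and 1.51 and 0.87 without replicate 1 and 2). The transferrin receptor gene Tfrc, the most abundant of that list, had 97.5 to 111 CPM in control, 51.6 and 65.0 in DMSO and 88.8 and 122 under ONX-0914.

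Of the ligands of the endothelial receptors, 5 of 10 tested were above 0, with a median of -0.019 (-0.461 without replicate 1 and 0.127 without replicate 2). Vegfa, the main ligand of Kdr and Flt1, had 52.9, 52.7 and 50.5 CPM in control, 50.5 and 81.4 in DMSO, and 98.9 and 75.5 under ONX-0914. The DMSO libraries spanned from near the lowest control to above the second ONX-0914 library (Log2FC 0.74 ± 0.229, edgeR FDR 0.175, and 0.53 and 0.93 without replicate 1 and 2). Tgfb2, a ligand of the TGF-beta family, had 66.1, 58.9 and 53.0 CPM in control, 68.4 and 66.1 in DMSO and 11.5 and 34.4 under ONX-0914 (Log2FC -1.31 ± 0.386, edgeR FDR 0.163, and -0.79 and -2.36 without replicate 1 and 2). Apln, the ligand of the endothelial apelin receptor, had 129 CPM in ONX-0914 replicate 1 and 41.4 in replicate 2, on either side of the control libraries at 62.9 to 69.5. Pdgfb, which recruits pericytes, had 23.4 to 30.5 CPM in control and 26.5 and 20.6 under ONX-0914.

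Of 12 further vascular receptor genes tested, 6 were above 0. The lowest FDRs of that list were those of Nrp2, a semaphorin and VEGF co-receptor that neurons also use, with 113 to 132 CPM in control and 72.3 and 55.2 under ONX-0914 (Log2FC -0.95 ± 0.187, edgeR FDR 0.0862), and Plxnd1, a semaphorin receptor of endothelium, with 17.9 to 22.5 and 34.5 and 59.9 (1.25 ± 0.26, FDR 0.0957). Among 11 Notch genes, 9 were above 0 with a median of 0.456 (0.132 without replicate 1 and 0.519 without replicate 2). Notch4, the endothelial Notch receptor, had 4.39 to 7.10 CPM in control and 13.3 and 10.4 under ONX-0914. The 18 Wnt genes of barrier formation had a median of 0.093 (-0.024 without replicate 1 and 0.236 without replicate 2). Lef1, a transcription factor of this pathway that thalamic neurons also express, had 9.51 CPM in ONX-0914 replicate 1 and 3.29 in replicate 2, against 1.06 to 1.90 in control.

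Basement membrane genes had 9 of 13 above 0, with a median of 0.196. Lamb1, a laminin chain, lay lower under ONX-0914 in both libraries, at 20.0 and 16.5 CPM against 36.6 to 38.0 in control (Log2FC -1.04 ± 0.192, edgeR FDR 0.0815). Sparc, a matrix protein of endothelium and glia, had 1031 CPM in ONX-0914 replicate 1 and 262 in replicate 2, against 263 to 385 in control. Of the other pericyte genes 7 of 11 were above 0, with a median of 0.13 (-0.099 without replicate 1 and 0.3 without replicate 2). Zic1, which marks both brain pericytes and thalamic and septal neurons, had 141 CPM in replicate 1 and 8.48 in replicate 2. The 8 tested genes of the other smooth muscle list had a median of 0.216, with 0.52 in replicate 1 and -0.615 in replicate 2. Of 10 endothelial activation genes only 3 could be tested, and none had an unadjusted p under 0.05. Among those too low to test, Lcn2, an acute phase lipocalin, had 110 counts (7.23 CPM) and Lrg1, an inflammation-induced glycoprotein, 114 counts (7.49 CPM) in ONX-0914 replicate 2, against 0 to 2 and 0 to 4 counts in the other 6 libraries. Arterial genes gave 4 tested of 7, with a median of 0.518 against control. Against DMSO their median was 0.031, with 2 of 4 above 0.

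Markers of other cells were read beside these values. Red blood cell markers were higher in the same ONX-0914 libraries as the endothelial genes, with 4 of the 5 markers above every control library in both, Hba-a2 at or near 0, and sums of 95.9 and 832 CPM against 29.9 to 39.9 in control and 46.3 and 34.5 in DMSO. Hba-a1 had 49.6 and 330 CPM in ONX-0914 replicates 1 and 2, and 13.2 to 17.9 in control. Sums of the 12 perivascular and meningeal fibroblast markers were 37.5 and 51.7 CPM against 25.5 to 44.5 in control, and the collagen gene Col1a2 had 5.51 and 6.83 against 3.20 to 7.33. The 5 perivascular macrophage markers were all too low to test, with F13a1 highest at 3.35 CPM in ONX-0914 replicate 2 and the defining markers Lyve1 and Pf4 at 0 to 0.723 and 0 to 1.18. Microglial markers summed to 267 and 375 CPM against 235 to 247 in control and 283 and 299 in DMSO. Choroid plexus markers, which bring fenestrated capillaries with them, summed to 82.3 and 204 CPM beside 47.5 to 197 in control. Neuronal markers lay lower, with a sum over 7 genes of 5874 and 10260 CPM under ONX-0914, 11800 to 13440 in control and 11690 and 10900 in DMSO. Of these, 5 of 7 lay below all controls in both ONX-0914 libraries and 4 of 7 in both DMSO libraries, and 5 of the 9 hippocampal neuron markers did so under ONX-0914, beside 16.4% of all genes for ONX-0914 and 15% for DMSO. The part of these cells, of the striatal and thalamic markers in replicate 1 and of the red blood cell markers in replicate 2 in the vascular values was not tested.

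**Figure D5:**
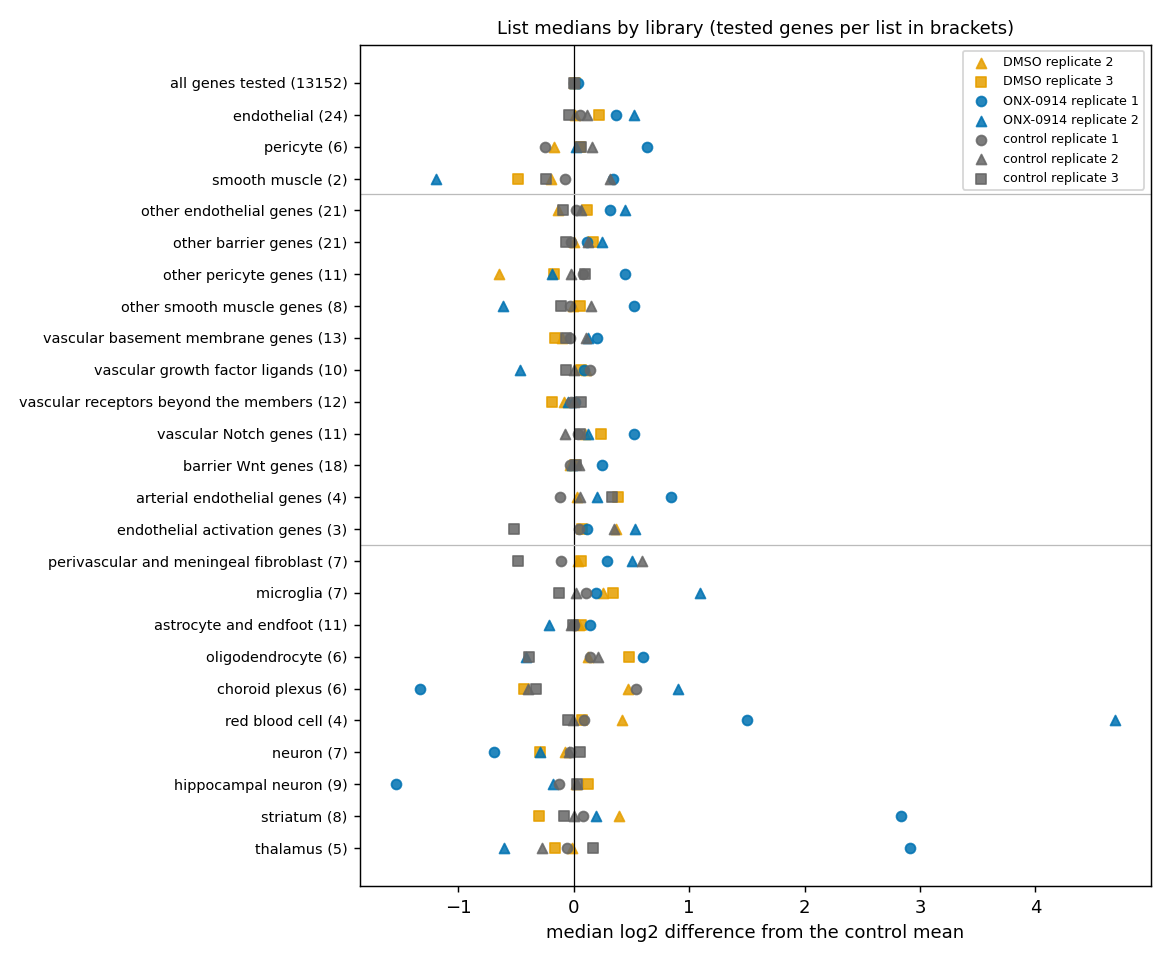
Median log2 difference from the control mean in each library for the vascular genes by cell type (top), further vascular lists (middle) and markers of other cells and regions (bottom), with the number of tested genes in brackets. Endothelial medians of 0.366 and 0.524 in the ONX-0914 libraries stand beside red blood cell medians of 1.504 and 4.687, and the striatal and thalamic lists are highest in ONX-0914 replicate 1, at 2.839 and 2.917.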

How the data were processed

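Per the labels and the study's methods, total RNA of hippocampus (RNA integrity number not less than 8) was made into directional libraries and read as 100 bp single ends. The submitters' processing notes name Trimmomatic 0.39, STAR 2.7.3a, featureCounts 2.00 and the build GRCm39. Strand setting and annotation are not given in the sources used here. The authors deposited raw counts per Ensembl gene, with 12 summary lines that were kept out of totals and tests. Symbols came from an identifier table (52083 of 55416 identifiers, 99.821% of counts).

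Genes that passed filterByExpr (minimum count 10) were scaled by TMM and fitted in edgeR 4.0.16 (R 4.3.3) with quasi-likelihood tests over the means of 3 groups and all 7 libraries, and p-values were adjusted by Benjamini-Hochberg. Log2 differences per library used log2 CPM with 0.5 added to each count. DESeq2 1.42.0, limma 3.58.1 and the settings of the closing section were alternatives. Exon lengths and overlaps came from GENCODE M21 (GRCm38), and no coordinates were taken from it for the counts. The script of the test was checked on simulated counts.

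The 34 genes and all lists were chosen with earlier results of these data known. Any of the 34 could be named. Of other vascular lists the rule named genes at FDR under 0.05, the 3 highest in mean CPM, the 2 with the lowest p and any ligand, and of cell marker lists the 2 most abundant. Lcn2, Lrg1, Lyve1, Pf4, F13a1 and Hba-a2 were named after their values were seen. Counts set the precision, and p-values cover the spread between libraries.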

Additional observations from a re-analysis of the deposited data

Results flagged for a closer look

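The share of reads that overlapped no annotated gene, which no comparison used, was 6.49% in ONX-0914 replicate 1 and 6.39% in replicate 2, above the 5.48% to 5.59% of the control libraries. The DMSO libraries had 4.75% and 5.39%. Both ONX-0914 libraries lay outside the range of the other 5, and the difference was not tested.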

How the results depend on the processing

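The median Log2FC of the tested vascular genes kept its direction for ONX-0914 against control in 19 settings and against DMSO in 18, and the number of genes called did not stay at 0. For ONX-0914 against control, DESeq2 called 2 vascular genes and the fit with no filter on low counts called 7 (Cldn5, Eng, Ly6c1, Mfsd2a, Slco1a4, Sox17 and Vtn), and leaving out 1 library gave 0 to 13, with 13 without ONX-0914 replicate 1 and 7 without replicate 2. Of the other vascular genes DESeq2 called 5 (3.88%, beside 3.01% of all genes), the unfiltered fit 18 (11%, beside 4.17%), the comparison with control and DMSO together 2 (1.52%, beside 0.867%), and leaving out 1 library 0 to 55, the last without ONX-0914 replicate 1 (39.6%, beside 46.1%) and 29 without replicate 2 (20.9%, beside 18.3%). The median was 0.637 when library totals were not scaled further, where the median of all genes was 0.19, and 0.369 to 0.564 with 1 library left out, lowest without ONX-0914 replicate 2. Unscaled totals put both ONX-0914 libraries above all controls for 19 of the 34 genes, beside 24.9% of all genes. For DMSO against control, the unfiltered fit called 1 vascular gene (Vwf), a fit of only the 2 groups 2 other vascular genes (1.65%, beside 1.08%), and leaving out 1 library 0 to 2 of them, while the median ran from -0.039 (without DMSO replicate 3) to 0.115. For ONX-0914 against DMSO, the unfiltered fit called 4 and leaving out 1 library 0 to 12 vascular genes (4 without ONX-0914 replicate 2). The other vascular genes gave 3 with DESeq2 (3.09%, beside 2.2%), 16 unfiltered (9.76%, beside 2.88%) and 0 to 56 with 1 library left out, 56 without ONX-0914 replicate 1 (40.3%, beside 41.9%) and 26 without replicate 2 (18.7%, beside 16.3%). That median was 0.603 with unscaled totals and 0.394 to 0.682 with 1 library left out, highest without DMSO replicate 3. Against DMSO, the Myh11 Log2FC of 0.23 became -0.98 without ONX-0914 replicate 1, the lowest of a range up to 0.99 (without ONX-0914 replicate 2). Fits with 1 ONX-0914 library take their spread from the control and DMSO libraries alone. The cause of these shifts was not tested.

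Over all genes, 18 were called for ONX-0914 against control, and 388 by DESeq2, 1118 unfiltered, 10 with at least 10 counts in every library, 3 with only the 2 groups, 114 against control and DMSO together and 0 to 6325 with 1 library left out. For DMSO against control the count was 2, and 9 by DESeq2, 31 unfiltered, 137 with only the 2 groups and 0 to 135 with 1 library left out. For ONX-0914 against DMSO it was 6, and 245 by DESeq2, 772 unfiltered and 0 to 5751 with 1 library left out. With a replicate block, 0 genes were called, and the medians were 0.525, 0.096 and 0.551. Same-numbered libraries did not deviate together (correlations of -0.089 to 0.068). In groups of 2 libraries the deviations mirror each other, so this cannot decide whether the numbers pair the samples. Counts limit Sox17, Sox18, Emcn, Anpep and Tagln, and groups of 2 and 3 libraries limit every test.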
